A study of Mus musculus with 9 samples.

Results

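The genes described here encode the delayed rectifier potassium channels and the two-pore background potassium channels of the mouse atrioventricular (AV) node, through which excitation passes slowly from the atria to the ventricles. They are 8 of the 34198 gene symbols measured, taken by name: Kcnh2, Kcnq1, Kcne1, Kcne4, Kcnk1, Kcnk2, Kcnk3 and Kcnk6. RNA of microdissected nodes from C57BL/6J mice was sequenced in 9 libraries, 3 in each of 3 groups. Control nodes (libraries 1 to 3) carried the genotype label Control. Nodes labelled Cx3cr1 Cx43-/- (libraries 4 to 6) came from mice lacking connexin 43 in cells that express Cx3cr1, a receptor of macrophages and monocytes. Nodes labelled Cd11bDTR and macrophage-depleted (libraries 7 to 9) came from mice in which the Cd11b promoter drives the diphtheria toxin receptor in myeloid cells, so that toxin removes macrophages. The labels give no age, no sex, no toxin dose or time, and do not say whether control mice received toxin or carried a Cre or transgene allele. They also do not say whether a library held 1 node or several.

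Delayed rectifier channels open slowly when the membrane depolarises and carry the potassium current that ends the action potential. Kcnh2 encodes the pore of the rapid component, and Kcnq1 the pore of the slow component, whose gating and current are set by small single-pass subunits of the Kcne family. Kcne1 slows and enlarges the Kcnq1 current and is known in the adult mouse heart for its expression in the conduction system, while Kcne4 inhibits Kcnq1 when both are expressed together. Two-pore channels are open at rest and help to set the resting potential. Among them Kcnk3 (TASK-1) is closed by acid, Kcnk2 (TREK-1) responds to stretch and lipids, and Kcnk1 (TWIK-1) and Kcnk6 (TWIK-2) are weak rectifiers, the last also known as a potassium efflux channel of macrophages.

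Stretches near the start sites of the most abundant delayed rectifier gene and of the gene that moved the other way are given here for orientation. RefSeq start sites on the GRCm38.p6 build were at hand for 4 of the 8 genes. Kcnh2 is shown by the 250 bases before the RefSeq start of a shorter transcript (chr5:24329592-24329841, minus strand), which overlap 0 exon bases of the GENCODE M21 annotation. Kcne4 is shown by 30 bases (chr1:78816845-78816874, plus strand) around an E-box 54 bases before its RefSeq start, inside the first exon of a longer GENCODE transcript. Capitals mark GGGCGG (the SP family motif) in the first and CACGTG (the E-box) in the second.
Kcnh2: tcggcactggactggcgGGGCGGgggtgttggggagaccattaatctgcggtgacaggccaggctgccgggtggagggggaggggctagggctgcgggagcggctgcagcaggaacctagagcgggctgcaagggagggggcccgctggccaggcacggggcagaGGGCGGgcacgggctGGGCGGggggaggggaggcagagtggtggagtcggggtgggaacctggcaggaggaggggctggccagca
Kcne4: ttcctcccggaaCACGTGacgatgcatttc
On both strands, GGGCGG stood in 32.7% and CACGTG in 6.02% of 32851 such windows of 250 bases. On both strands of the 250 bases before each of these starts, the T-box motif GGTGTG (in 16.3% of windows), the GATA factor motif AGATAA (9.99%) and the glucocorticoid receptor motif AGAACA (16.1%) had no match, and no binding was measured at these sequences.

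Expression is given as CPM, a gene's read count scaled to a fixed library total that included reads outside the listed genes. Reads in listed genes made up 42.8% to 48.7% of that total in control, 46.8% to 47.9% in Cx3cr1 Cx43-/- and 28.3% to 44.0% in depleted libraries, lowest in library 9. Low values fell on steps of a single read, from which 1 CPM corresponded to about 52.1 to 64.9 reads. Of 8 nodal markers, 7 passed the filter, and their summed level was 266 to 316 CPM in control and 58.6 to 105 CPM in depleted libraries. Isl1 was at or below 0.21 CPM in control. Atrial markers summed to 3843 to 6635 CPM and ventricular markers to 3816 to 6273 CPM in control, so RNA of working myocardium was present as well. The 8 macrophage markers summed to 192 to 291 CPM in control, 290 to 389 CPM in Cx3cr1 Cx43-/- and 42.5 to 52.8 CPM in depleted nodes.

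Macrophage-depleted nodes held less mRNA of both delayed rectifier pores, of Kcne1 and of Kcnk3, and more of Kcne4, than control nodes. Kcne1 fell to 18.6% of its control mean, Kcnh2 to 30.8%, Kcnk3 to 31.1% and Kcnq1 to 43.7%. Kcne4 rose 3.79-fold. Of the 8 genes, 7 had at least 1 CPM in at least 3 libraries and were tested with limma among 12925 genes. Of these 7, 4 were lower and 1 higher at a Benjamini-Hochberg adjusted p under 0.05, and 2 did not pass. Over all tested genes 36.2% were called, 33.0% lower and 3.23% higher. On the deposited CPM scale a fall was thus common and a rise was not, which did not hold under every other scaling given below. The median log2 change was -1.18 for the 7 genes and -0.49 for all tested genes. In bulk tissue, fewer cells of a type and less RNA per cell cannot be told apart.

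**Figure D1:**
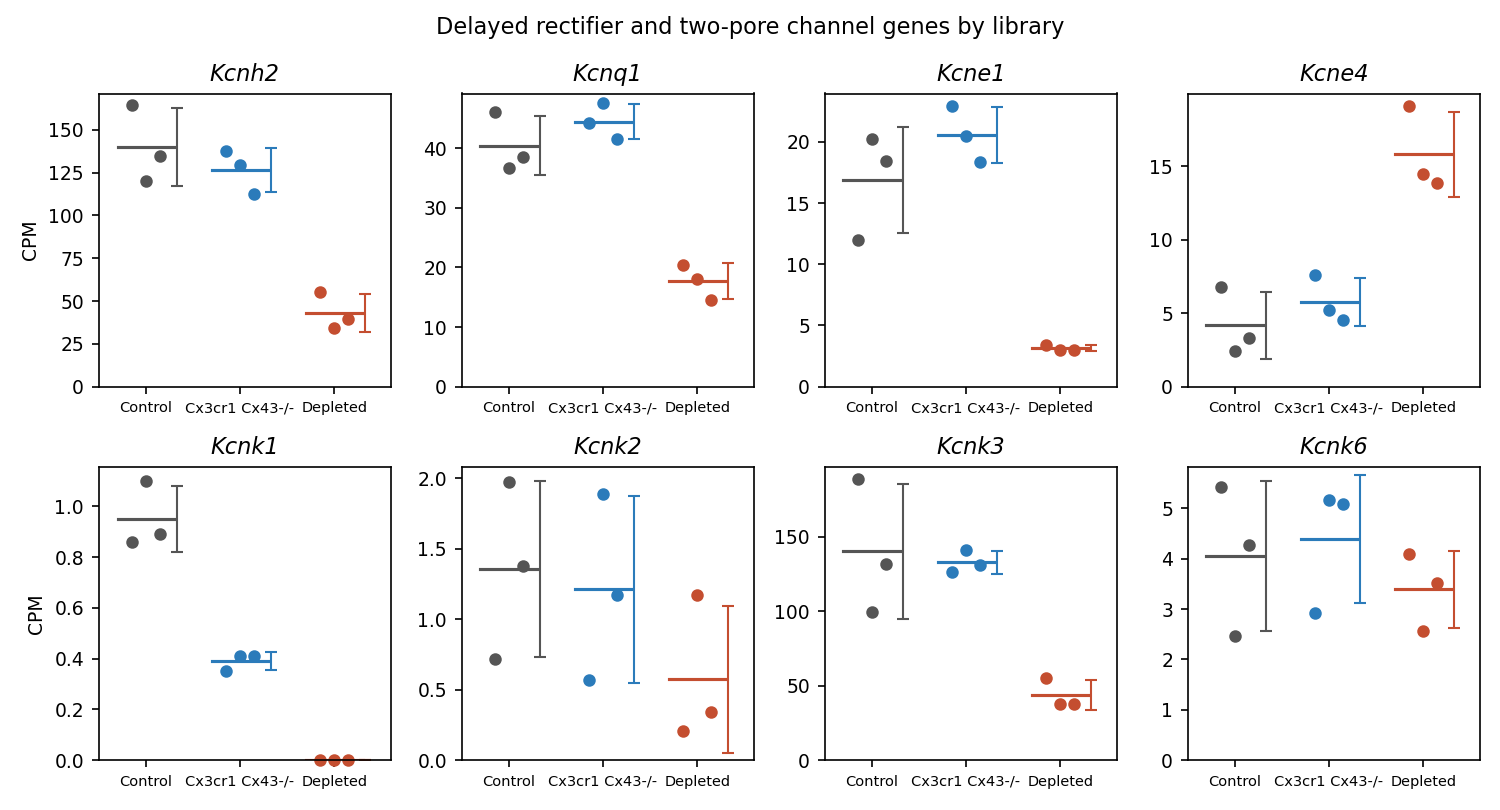
CPM of each of the 8 genes (vertical axis, starting at 0) by group, with 1 point per library, the group mean as a line and the SD as a bar (n = 3). All 3 depleted libraries lie below all control libraries for Kcnh2, Kcnq1, Kcne1, Kcnk1 and Kcnk3 and above them for Kcne4.

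Kcnh2, the pore of the rapid delayed rectifier, stood at 164.6, 120.0 and 134.7 CPM in control libraries 1, 2 and 3. It stood at 137.8, 129.4 and 112.4 CPM in Cx3cr1 Cx43-/- libraries 4, 5 and 6, and at 55.5, 34.2 and 39.6 CPM in depleted libraries 7, 8 and 9. Every depleted library was thus far below every control library, while control and Cx3cr1 Cx43-/- libraries overlapped. The depleted mean was 43.1 ± 11.1 against 139.8 ± 22.7 CPM in control (SD, n = 3). The log2 change was -1.70 (SE 0.21, limma adjusted p = 4.12e-06).

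Kcnq1, the pore of the slow delayed rectifier, had the smallest of the 4 falls. Its values were 46.0, 36.7 and 38.6 CPM in control and 44.2, 47.5 and 41.6 CPM in Cx3cr1 Cx43-/- nodes. In depleted nodes they were 20.5, 18.01 and 14.5 CPM, all below every other library. The log2 change against control was -1.18 (SE 0.21, limma adjusted p = 0.000235). The noncoding Kcnq1ot1 runs antisense to Kcnq1 and overlaps 2.96% of its GENCODE exon bases. It was not analysed here. The libraries were strand-directional, and since the strand setting of the counting is not given, reads of such a partner cannot be told apart.

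Kcne1, the accessory subunit of the slow delayed rectifier, was at 11.97, 20.2 and 18.5 CPM in control and 23.0, 20.5 and 18.3 CPM in Cx3cr1 Cx43-/- nodes. It was at 3.4, 3.03 and 2.97 CPM in depleted nodes, with the smallest SD of all groups for this gene (0.233 CPM) at the lowest mean. Control library 1 was the lowest of the control libraries for Kcne1, and it was the highest for Kcnh2, Kcnq1, Kcne4, Kcnk3 and Kcnk6. The log2 change against control was -2.23 (SE 0.26, limma adjusted p = 1.34e-06). It was the largest change among the 7 tested genes on the deposited scale, while under each of the 3 other scalings Kcne4 changed more.

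Kcne4, the inhibitory subunit, moved in the opposite direction. It was at 6.77, 2.45 and 3.28 CPM in control, 7.62, 5.22 and 4.51 CPM in Cx3cr1 Cx43-/- and 19.1, 14.5 and 13.8 CPM in depleted nodes. Every depleted library was above every other library. Control libraries were uneven for this gene, with a coefficient of variation of 55.0%, against 12.3% for Kcnq1. The log2 change was 1.90 (SE 0.32, limma adjusted p = 0.000126).

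Kcnk3, the acid-sensitive background channel, behaved much like Kcnh2 across the libraries. Its values were 189.2, 99.5 and 132.1 CPM in control, 126.2, 141.0 and 131.4 CPM in Cx3cr1 Cx43-/- and 55.3, 37.7 and 37.9 CPM in depleted nodes. The control libraries spanned a wide range, and the lowest of them, at 99.5 CPM, was above the highest depleted library, at 55.3 CPM. The log2 change was -1.65 (SE 0.23, limma adjusted p = 1.47e-05). An antisense gene, Gm9899, overlaps 5.76% of the GENCODE exon bases of Kcnk3 and stood at a mean of 1.51 CPM in control and 0.557 CPM in depleted nodes.

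Kcnk1 was low and did not pass the filter. It was at 0.86, 1.10 and 0.89 CPM in control (about 54, 59 and 51 reads) and at 0.35, 0.41 and 0.41 CPM in Cx3cr1 Cx43-/- nodes (about 21, 24 and 24 reads). It was listed at 0 in all 3 depleted libraries, where a count of 0 allows up to 0.0518, 0.0575 and 0.0462 CPM (3 reads each, for counting error only). The 3 groups did not overlap. Without the filter, limma over 22144 genes gave an adjusted p of 0.000822 for depleted against control and 0.684 for Cx3cr1 Cx43-/- against control. The fitted change depends on the pseudocount and is not given as a fold. The antisense gene Gm45875, not analysed here, overlaps 8.01% of the GENCODE exon bases of Kcnk1.

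Kcnk2, the stretch-responsive channel, did not pass the test. It was at 0.72, 1.97 and 1.38 CPM in control, 0.57, 1.89 and 1.17 CPM in Cx3cr1 Cx43-/- and 0.21, 1.17 and 0.34 CPM in depleted nodes. Within each group the libraries differed by up to several fold, and the groups overlapped. The log2 change was -0.84 with a 95% interval from -1.79 to 0.12 (limma adjusted p = 0.157). That interval includes both a large fall and no change. About 12 to 106 reads lay behind each value in control and depleted libraries. The antisense A430027H14Rik, not analysed here either, overlaps 12.2% of its GENCODE exon bases.

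Kcnk6, the weak rectifier known from macrophages, did not pass either. It was at 5.42, 2.47 and 4.27 CPM in control, 2.93, 5.16 and 5.09 CPM in Cx3cr1 Cx43-/- and 4.09, 2.57 and 3.51 CPM in depleted nodes, with all 3 groups overlapping. Its log2 change was -0.19 with a 95% interval from -0.89 to 0.51 (limma adjusted p = 0.678). The sign of this small difference was positive under each of 3 other scalings.

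Counted without the filter, 5 of the 8 genes had all depleted libraries below all control libraries and 1 had them above. The 5 include Kcnk1, which was not among the tested genes. Of the tested genes of the whole table, 38.0% were separated downwards and 3.61% upwards in the same way.

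**Figure D2:**
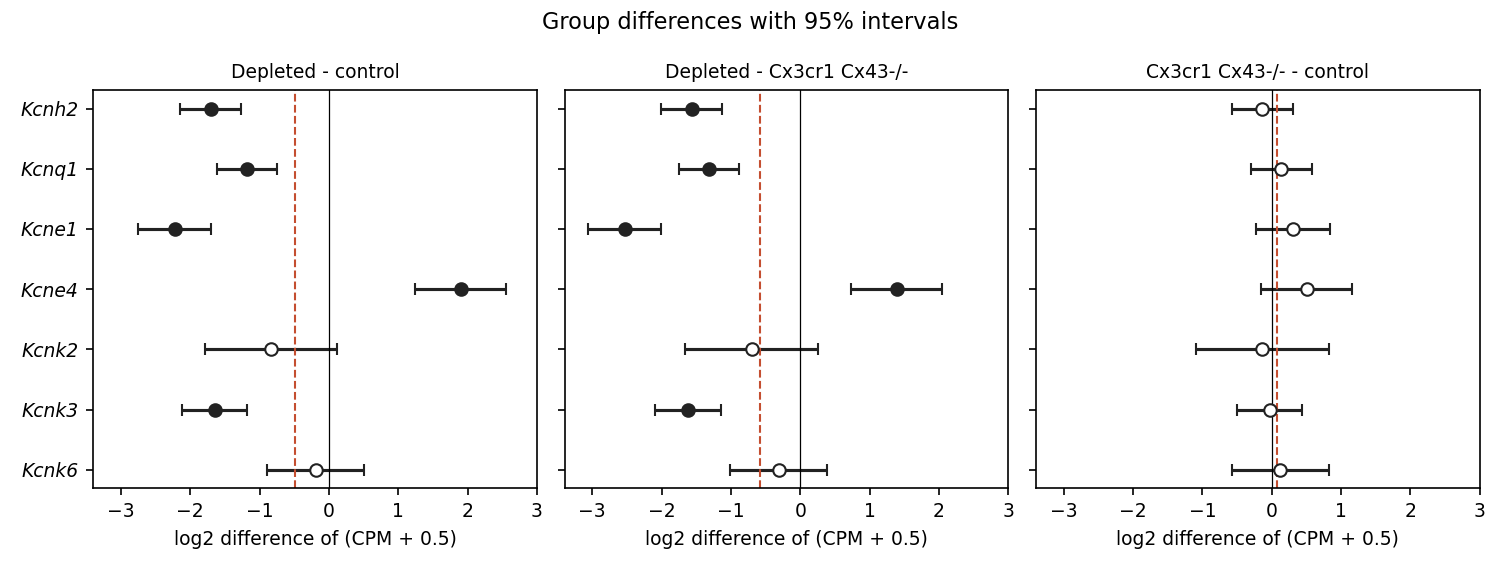
Differences of log2(CPM + 0.5) between groups (horizontal axis) for the 7 tested genes, with 95% limma intervals. Filled points passed the adjusted p threshold, the solid line is 0 and the dashed line is the median of all tested genes. Kcne4 alone lies to the right of 0 with a filled point in the first 2 panels, and no point is filled in the third.

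Deposited CPM values fall as a whole in the depleted group, so the comparison was repeated with 3 other scalings of the libraries. The pan-cardiomyocyte markers summed to 26957 to 29247 CPM in control and 14714 to 23474 CPM in depleted libraries. Among these 9 markers Mybpc3 and Myh6 fell and 7 did not pass. On the scale made from them, given next, limma called 2 of the 9 lower and 1 higher, so they did not move alike. When libraries were brought to a common geometric mean of these markers, Kcnh2 changed by -1.21 (limma adjusted p = 3.33e-05), Kcne1 by -1.77 (4.85e-05), Kcnk3 by -1.15 (0.000264) and Kcnq1 by -0.69 (0.00375). Kcne4 changed by 2.37 (3.99e-05). All 5 kept their call and direction, though the change of Kcnq1 was smaller by over 1.5 times than the -1.18 of the deposited scale. With a common total over the listed genes, Kcnq1 changed by -0.85, and with median-of-ratios scaling by -0.70, again with 4 genes lower and 1 higher. Over all tested genes 19.7% were lower and 8.88% higher with the common total, and 13.1% and 13.3% with median-of-ratios scaling. On the cardiomyocyte scale 11.02% of all tested genes were lower and 11.5% higher, with a median of -0.02. The same 5 genes as above were separated downwards and Kcne4 upwards on each of the 4 scales. The share of all tested genes separated in this way was counted on the deposited scale only (38.0% downwards, 3.61% upwards).

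**Figure D3:**
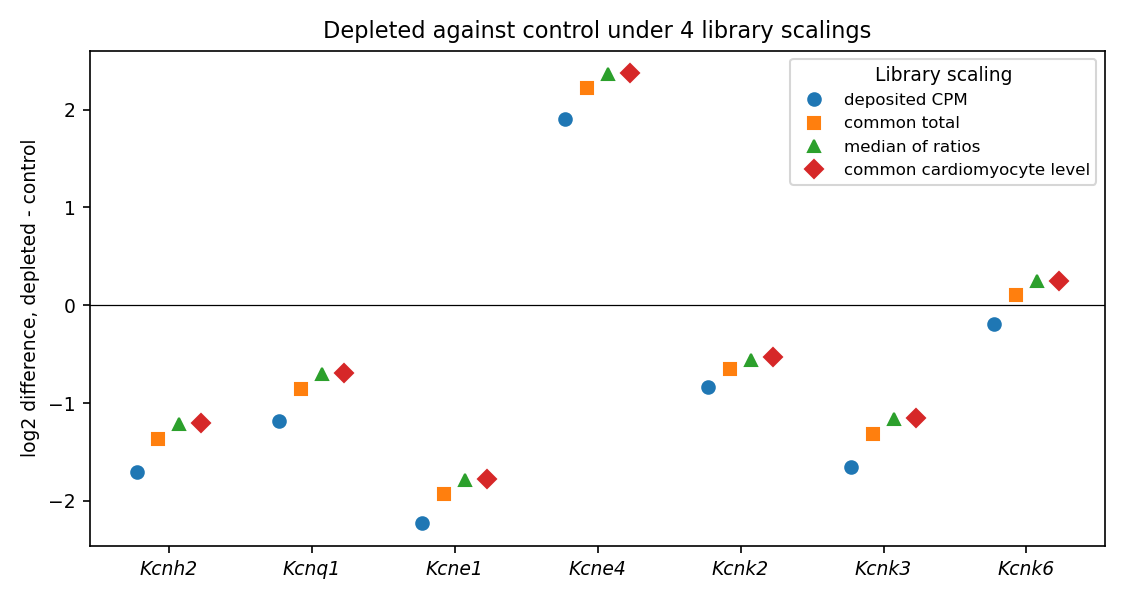
Log2 difference between depleted and control nodes (vertical axis) for the 7 tested genes, with 1 symbol for each of 4 ways to scale the libraries. The 4 symbols of Kcnh2, Kcnq1, Kcne1 and Kcnk3 stay below 0 and those of Kcne4 above it, and those of Kcnk6 lie on both sides.

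Deletion of connexin 43 in Cx3cr1-expressing cells gave no called change in this set. Of the 7 tested genes 0 passed limma, 0 had an unadjusted p under 0.05, and the smallest unadjusted p was 0.125, for Kcne4. Over all tested genes 0.00774% were called, a single gene, and 191 had an unadjusted p under 0.05. The 95% intervals use a spread estimated from all 9 libraries, the depleted ones included. Under all 14 alternatives, which include a fit of only these 2 groups, limma called 0 of the channel genes. For Kcnh2 the log2 difference was -0.14 (interval -0.58 to 0.31), for Kcnq1 0.14 (-0.30 to 0.57), for Kcne1 0.31 (-0.22 to 0.84) and for Kcnk3 -0.03 (-0.50 to 0.44). Kcne4 differed by 0.51 (-0.15 to 1.16), an interval that includes a doubling. Control and Cx3cr1 Cx43-/- libraries overlapped for 7 of the 8 genes. The exception was the low Kcnk1, with all 3 Cx3cr1 Cx43-/- libraries below control. Over all, 8.94% of tested genes had separate libraries in either direction.

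Depleted nodes were also compared directly with Cx3cr1 Cx43-/- nodes, a comparison that shares its depleted libraries with the first. Here 4 genes were again lower and 1 higher, against 43.4% called, 40.7% lower and 2.69% higher, over all genes. Without the filter 5 of the 8, the untested Kcnk1 among them, had all depleted libraries below and 1 above, against 50.6% and 3.39% of tested genes. Kcne1 changed by -2.53 (SE 0.26, limma adjusted p = 2.13e-07), Kcnk3 by -1.62, Kcnh2 by -1.57 and Kcnq1 by -1.32. Kcne4 changed by 1.39 (SE 0.32, limma adjusted p = 0.00174), and Kcnk2 and Kcnk6 did not pass. With median-of-ratios scaling the falls of Kcnh2, Kcnk3 and Kcnq1 were smaller by over 1.5 times, down to -1.003, -1.05 and -0.76, and kept their calls.

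The relation between subunits was then followed within each library, where scaling cancels apart from the pseudocount of 0.5. The quantity is the log2 value of one gene minus that of another. Kcne4 minus Kcnq1 was -2.68, -3.66 and -3.37 in control, -2.46, -3.07 and -3.07 in Cx3cr1 Cx43-/- and -0.10, -0.31 and -0.06 in depleted libraries. The group means of this difference were 3.08 apart (depleted minus control), with every depleted library above every other. Kcne1 minus Kcnq1 was -1.90, -0.84 and -1.04 in control and -2.43, -2.39 and -2.11 in depleted libraries. The group means were -1.05 apart (depleted minus control), and control library 1 lay nearest to the depleted libraries.

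Kcnh2 minus Kcnq1 was 1.77 ± 0.0673 in control, 1.496 ± 0.116 in Cx3cr1 Cx43-/- and 1.25 ± 0.297 in depleted nodes as group means (SD, n = 3), and the libraries of the 3 groups did not overlap. The margin between the last 2 groups was narrow, since depleted libraries 7 and 9 were at 1.42 and Cx3cr1 Cx43-/- library 6 at 1.42 as well. As a plain ratio of CPM, without the pseudocount, Kcnh2 was 271% and 274% of Kcnq1 in depleted libraries 7 and 9 and 270.1% in Cx3cr1 Cx43-/- library 6, so these groups then overlapped. Without depleted library 8 the difference between these 2 groups was -0.08 in place of -0.25. Kcnk2 minus Kcnk3 overlapped between all groups. Of 12 exact two-sided permutation tests of these differences, 7 gave p = 0.1, the smallest that 3 against 3 libraries can give, and adjusted p = 0.171, so none could pass the threshold.

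**Figure D4:**
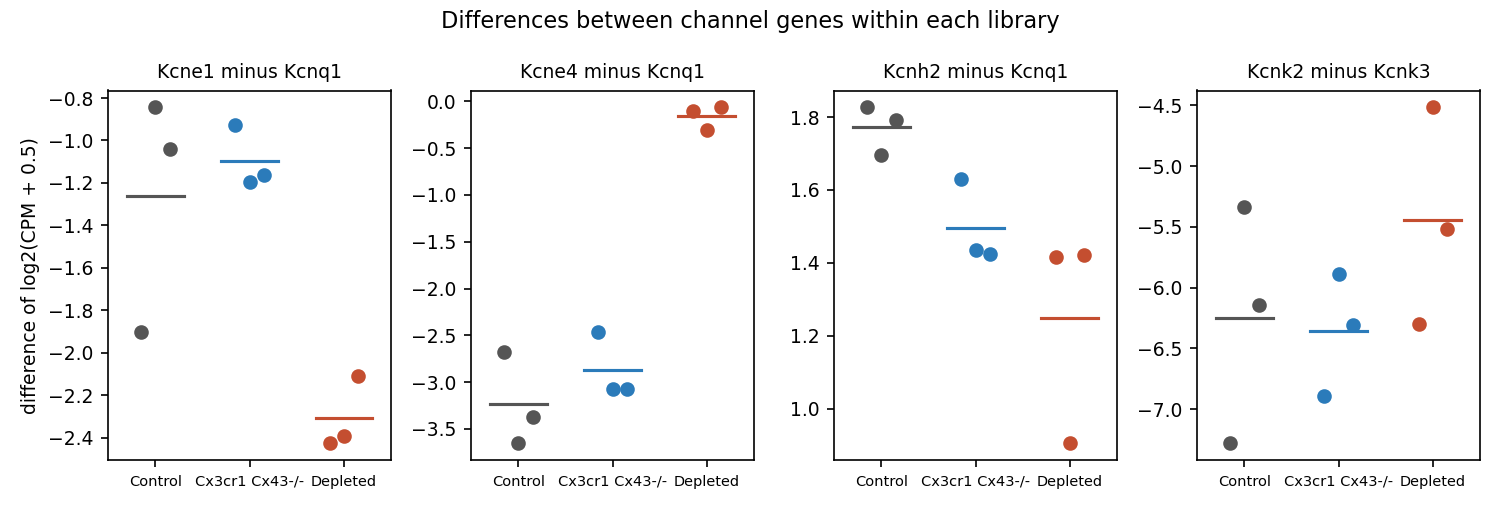
Difference of log2(CPM + 0.5) between 2 genes of the same library (vertical axis, a separate range in each panel), with 1 point per library and the group mean as a line. The depleted libraries stand above all others for Kcne4 minus Kcnq1 and below all others for Kcne1 minus Kcnq1, and overlap the others for Kcnk2 minus Kcnk3.

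Levels of different genes were compared as CPM per kilobase of exon, with lengths from GENCODE M21, an annotation of another build than the authors' mm9. In control nodes Kcnk3 (35.3 ± 11.4 CPM per kilobase, SD, n = 3) and Kcnh2 (28.8 ± 4.69) came first, and their library ranges overlapped. Kcnq1 (9.88 ± 1.21), Kcne1 (5.25 ± 1.35) and Kcne4 (1.57 ± 0.863) followed, each below the one before it in all libraries. Kcnk6 (0.976 ± 0.358) overlapped Kcne4, and Kcnk1 (0.425 ± 0.0585) overlapped Kcnk2 (0.274 ± 0.127) at the end. Cx3cr1 Cx43-/- nodes had the same order, apart from Kcnk1 and Kcnk2, which overlapped there too. In depleted nodes Kcne4 (5.95 ± 1.08) came next after Kcnk3 and Kcnh2, overlapping the range of Kcnh2 and above Kcnq1 (4.31 ± 0.737) without overlap, and Kcne1 (0.975 ± 0.0725) had come down to the range of Kcnk6 (0.817 ± 0.185).

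**Figure D5:**
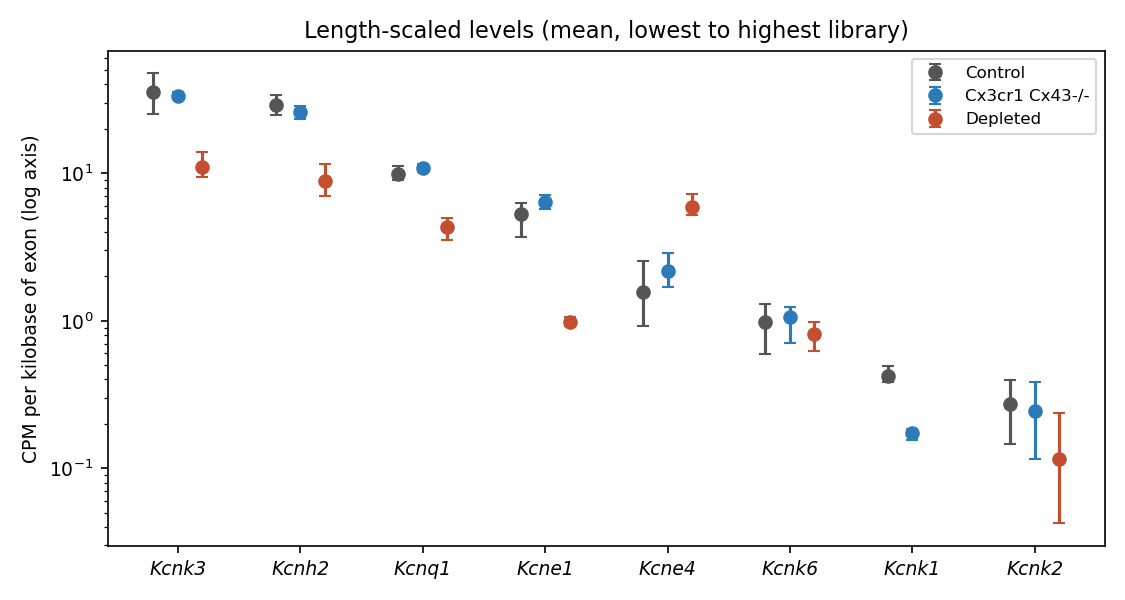
CPM per kilobase of exon (log axis) for the 8 genes in the order of their control means, with the group mean as a point and a bar from the lowest to the highest of 3 libraries. Kcnk1 has no point in depleted nodes, where it was listed at 0. On this length-scaled axis Kcne4 lies below Kcnq1 and Kcne1 in control and above both in depleted nodes.

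The relatives of these genes were scarce in the node. Of 14 other Kcnq, Kcnh and Kcne genes, 2 passed the filter, and limma called 0 of them in each comparison, with 0 at an unadjusted p under 0.05. Kcnh7, a relative of Kcnh2, was at 1.28 ± 0.718 CPM in control and 0.487 ± 0.447 CPM in depleted nodes (log2 change -0.87, limma adjusted p = 0.159). Of 10 other two-pore genes, 2 passed the filter, Kcnk13 and Kcnk5, again with 0 calls by limma and 1 unadjusted p under 0.05, in depleted against Cx3cr1 Cx43-/- nodes. Kcnk13 stood at 0.637 ± 0.555 CPM in control, 1.49 ± 0.326 in Cx3cr1 Cx43-/- and 0.550 ± 0.716 in depleted nodes. Kcnk5 stood at 1.01 ± 0.501 CPM in control and 0.887 ± 0.356 in depleted nodes.

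Of 27 tested genes for partners and regulators of these channels, 8 were lower and 2 higher in depleted than in control nodes, against 33.0% lower and 3.23% higher over all genes, with a lower share near that of all genes and a median log2 change of -0.35 against -0.49 for all genes. On the cardiomyocyte scale 6 were lower and 4 higher, against 11.02% and 11.5% over all genes, and the median turned positive, at 0.14. Hspa8, a chaperone on this list, was at 127.5 ± 4.99 CPM in control and 13.95 ± 6.58 in depleted nodes (log2 change -3.24, limma adjusted p = 1.33e-09). It has many processed pseudogenes that can take its reads. Rnf207, a ubiquitin ligase that acts on Kcnh2, was at 77.7 ± 19.4 and 17.8 ± 4.15 CPM (-2.10, limma adjusted p = 4.53e-07). Fhl2, a LIM protein that binds Kcne1, was at 716 ± 57.8 and 272 ± 53.1 CPM (-1.41, limma adjusted p = 4.68e-05).

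Cd74, the invariant chain of antigen-presenting cells, was on this list and fell with the macrophage markers (117.9 ± 41.7 against 18.8 ± 5.44 CPM, -2.60). The 2 that rose were S100a10 and Sgk1. S100a10 is reported to bind a two-pore channel (44.8 ± 5.02 against 88.6 ± 17.1 CPM, 0.96, limma adjusted p = 0.0015). Sgk1 is a kinase that raises Kcnq1 and Kcne1 currents (31.9 ± 5.10 against 54.7 ± 16.4 CPM, 0.74, limma adjusted p = 0.0175). S100a10 and Sgk1 were higher and Hspa8, Rnf207, Fhl2 and Cd74 lower under each of the 4 scalings. In Cx3cr1 Cx43-/- against control nodes limma called 0 of the 27, and 1 had an unadjusted p under 0.05.

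The nodal markers moved with the falling channels, and their part in the falls was not tested. Of 7 tested nodal markers, 5 were lower and 0 higher in depleted than in control nodes, with a median log2 change of -1.32, and 4 were lower on the cardiomyocyte scale. Hcn4, the pacemaker channel gene that marks nodal cells, was at 17.9 ± 2.09 CPM in control and 2.75 ± 1.003 CPM in depleted nodes. Over all genes 33.0% were lower and 3.23% higher on the deposited scale, and 11.02% and 11.5% on the cardiomyocyte scale. Markers of several other cell types were lower too. Limma called 3 of 4 tested Schwann and neuronal markers lower (median -1.24), 3 of 5 endothelial markers (-0.92), 3 of 4 ventricular markers (-0.95) and 7 of 8 macrophage markers (-2.26). On the cardiomyocyte scale 1 Schwann and neuronal, 1 endothelial, 2 ventricular and 7 macrophage markers were lower. Of 4 atrial markers 1 was lower (median -0.08), which became 0 on the cardiomyocyte scale (median 0.42). Of 4 adipocyte markers 0 were called on either of these scales (medians 0.74 and 1.19). Of 3 valve and cartilage markers 1 was lower on each. Of 5 fibroblast markers 0 were called by limma and 0 had an unadjusted p under 0.05, with log2 changes between -0.42 and -0.30 and a median that turned positive, at 0.13, on the cardiomyocyte scale. Of 8 smooth muscle and pericyte markers 5 were lower and 1 higher, which became 0 lower and 2 higher on the cardiomyocyte scale and is to be read beside the shares over all genes on each scale. Of 5 monocyte and neutrophil markers, summed at 3.82 to 8.03 CPM in control and 18.4 to 24.1 CPM in depleted nodes, 2 of the 3 tested rose in the libraries where Kcne4 rose, and their part in the rise of Kcne4 was not tested.

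For each of the 7 tested genes, the 3 most similar profiles were sought among 8859 genes with a mean of at least 5 CPM. Likeness was the root mean square (RMS) difference of log2(CPM + 0.5) over the 9 libraries after each gene's own mean was removed. Among the channel genes themselves, Kcnh2 and Kcnk3 were the closest pair, with an RMS difference of 0.15. Kcnh2 was closest to Grb14 (0.11), an adaptor of the insulin receptor, then to Tbc1d8 (0.11) and Fam73b (0.12). Kcnk3 was closest to Kcnj11 (0.09), the pore of the ATP-sensitive potassium channel, then to Ccdc85c (0.11) and Olfm1 (0.12). Kcnj11 was at 82.9 ± 18.2 CPM in control, 85.5 ± 2.69 in Cx3cr1 Cx43-/- and 27.7 ± 7.56 in depleted nodes.

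Kcnq1 had the closest neighbours of all 7, Kdm4a (0.07), a histone demethylase, Man1c1 (0.08) and St5 (0.08). Kcne1 and Kcne4 had more distant ones. Kcne1 was nearest to D0H4S114 (0.24), Igsf1 (0.29) and Tfrc (0.31), the transferrin receptor, which was at 70.8 ± 7.76 CPM in control and 16.8 ± 1.46 CPM in depleted nodes. Kcne4 was nearest to Snhg5 (0.30), Srpx (0.33) and Cebpb (0.34), a transcription factor of inflammation, at 15.01 ± 3.15 CPM in control and 52.9 ± 20.3 CPM in depleted nodes. Kcnk2 was nearest to Zfp518a (0.27), Phf6 (0.29) and Thrb (0.30), and Kcnk6 to Thrap3 (0.14), Phldb2 (0.16) and Homer1 (0.16). These are descriptions of 9 libraries, 3 in each group.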

How the data were processed

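Gene expression was measured by RNA sequencing of 9 libraries, and each column of the deposited table was matched to its sample by name. The values are CPM deposited by the authors, rounded to 2 decimals, for 34198 symbols. The mm9 build, STAR 2.3.0, HTSeq 0.6.0 and edgeR are named, without roles, per the submitters' processing notes. The annotation used is not stated there. Rounding left the reads unrecovered, so no count model was fitted. The design calls the replicates biological without naming the animals, so p-values measure the spread between these libraries.

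A pseudocount of 0.5 CPM was added before taking log2, and a single limma model (version 3.58.1, R 4.3.3, trended variance prior) covered the 9 libraries. The 12925 genes that reached 1 CPM in 3 or more libraries were tested two-sided, with Benjamini-Hochberg adjustment over all of them and a threshold of 0.05. Changes on this scale understate those of low genes. The fit was tested on simulated data. Named genes were the 8 channel genes, up to 4 members with the smallest p of each list of relatives and partners, and the 3 nearest profiles of each tested channel gene. One gene that this rule names is not reported here. Sgk1, S100a10, Hcn4, Mybpc3, Myh6 and Gm9899 were named after their values were seen. The channel genes and lists were chosen with earlier results of these data known. Alternatives were pseudocounts of 0.1 and 2, no filter, 3 scalings, fits of only 2 groups, robust empirical Bayes and each library left out. Figures were drawn with matplotlib 3.10.9.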

Additional observations from a re-analysis of the deposited data

How the results depend on the processing

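Kcnh2, Kcnq1, Kcne1, Kcne4 and Kcnk3 kept their direction and call in both comparisons with depleted nodes under all 14 alternatives of each, including the omission of any library. Without the filter Kcnk1 was called lower as well in both comparisons. It was listed at 0 in all 3 depleted libraries, so its values had no spread in that group. For Kcnh2, leaving out a library gave log2 changes from -1.90 to -1.55 against control, for Kcne1 from -2.45 to -2.08, for Kcnk3 from -1.87 to -1.41, for Kcnq1 from -1.29 to -1.05 and for Kcne4 from 1.62 to 2.27. No paired analysis was possible because replicate numbers do not repeat between groups.

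Among the channel genes and their within-library differences, the signs that turned were of differences that passed no test. Kcnk6 in depleted against control nodes was 0.11 with a common total, 0.25 with median-of-ratios scaling, 0.25 on the cardiomyocyte scale, and between -0.47 and 0.028 (without control 1) with a library left out. Against Cx3cr1 Cx43-/- nodes the same scalings gave 0.030, 0.19 and 0.16. In Cx3cr1 Cx43-/- against control nodes, leaving out a library gave -0.25 to 0.21 for Kcnk3 (0.21 without control 1, 0.0067 without Cx3cr1 Cx43-/- 4), -0.42 to 0.16 for Kcnk2 (0.10 without control 2, 0.16 without Cx3cr1 Cx43-/- 4) and -0.16 to 0.36 for Kcnk6 (-0.16 without control 2). It gave -0.15 to 0.38 for Kcne1 minus Kcnq1 and -0.62 to 0.35 for Kcnk2 minus Kcnk3.

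The counts over all genes depended on the scaling. In depleted against control nodes 4261 were lower and 417 higher, and these became 2532 and 1141 with a common total. Median-of-ratios scaling gave 1677 lower and 1702 higher, the cardiomyocyte scale 1413 and 1470. Against Cx3cr1 Cx43-/- nodes, 5256 and 348 became 2698 and 1100, 1666 and 1696, and 1558 and 1374. With a library left out the counts ranged from 2318 (without control 1) to 5893 lower and from 293 to 669 (without depleted 9) higher in the first comparison, and from 3044 (without Cx3cr1 Cx43-/- 5) to 6769 lower and from 238 to 623 (without depleted 9) higher in the second. Without Cx3cr1 Cx43-/- 6 it was 3495 lower. In Cx3cr1 Cx43-/- against control nodes the lower count was 1, became 0 at a pseudocount of 0.1 or without the filter and ranged from 0 to 2 with a library left out, and the higher count was 0, became 1 at a pseudocount of 2 and ranged from 0 to 1. Kcnk1 and Kcnk2 had about 111 reads or fewer in any library, so counting error is larger for them than for the other channel genes.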
